A study of Homo sapiens with 6 samples.

Results

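The ZNF genes encode zinc finger proteins, most of them DNA-binding proteins built from tandem C2H2 fingers, short folds in which a pair of cysteines and a pair of histidines hold a zinc ion. Many of these proteins also carry a KRAB box, which recruits the co-repressor TRIM28 and, through it, the histone H3 lysine 9 methyltransferase SETDB1, and this route is best known for silencing transposable elements. Others lack the box and act in transcription, chromatin complexes, RNA handling or ribosome assembly. Chromosome 19 holds the densest human ZNF clusters, and the genes described here are those on every other autosome.

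Members were the protein-coding genes on an autosome other than 19 whose symbol is ZNF, a number and at most 1 further letter. The rule found 251 of 58735 genes in the deposited table, of which 19951 are protein-coding. By the same symbol rule 246 ZNF genes lie on chromosome 19 and 12 on the sex chromosomes. RNA carrying a poly(A) tail was sequenced from KYSE410, a cell line of human oesophageal squamous cell carcinoma, in 3 siADAR1 samples and 3 control samples. ADAR1, encoded by ADAR, is an enzyme that edits double-stranded RNA by turning adenosines into inosines. The siADAR1 samples are labelled as ADAR1 knockdown, and the controls, titled NC, are labelled as wild type with no treatment, so siRNA delivery and loss of ADAR1 cannot be told apart. All samples are of 1 cell line, and no label says that they came from separate cultures. Any p-value therefore rests on the variation among these 6 samples alone, and that variation may be technical.

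ADAR checked the labels. It stood at 88.7 ± 9.72 CPM in siADAR1 and 443.6 ± 12.1 CPM in control (SD, n = 3 each), a log2 fold change of -2.32 ± 0.09 (SE), where CPM is counts per 1000000 on the normalized library size. Total counts per library were 15175619 to 16903792 in siADAR1 and 15497788 to 17329443 in control. The 10 squamous markers had counts, with a summed level of 1080 to 1130 CPM in siADAR1 and 986 to 1050 CPM in control. The sum holds opposite changes, since KRT17, TP63 and DSG3 were called higher (log2 fold changes of 0.35, 0.48 and 1.54) and KRT5, SFN, KRT13 and KRT6A lower (-0.54, -0.68, -0.90 and -2.24). KRT14 was near 0. The marker lists of leukocytes, endothelium and glandular epithelium each summed to at most 2.15 CPM in any library. Of 6 fibroblast markers 5 had counts, with a sum of 72.3 to 85.0 CPM in siADAR1 and 40.1 to 59.4 CPM in control and DCN at 0. Most of it was LUM (means of 58.0 CPM in siADAR1 and 35.0 in control) and COL1A1 (21.5 and 15.9), both called higher. PDGFRB, COL3A1 and COL1A2 averaged at most 0.946 CPM in either group and had too few counts to be tested. The part of these markers in the results below was not tested.

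Promoter sequences show what many members share at their starts. RefSeq promoters of GRCh38.p14, running from 250 bases before to 50 bases after the first listed start, were matched to 202 members. The letters CCGGAAG, the core bound by ETS factors, were searched for on both strands and found in 72 of 202 member promoters (35.6%). They occurred in 98 of 215 promoters of chromosome 19 ZNF genes (45.6%), in 2255 of 15843 promoters of protein-coding genes (14.2%) and in 10.7% of all 27305 promoters. The next 3 promoters, from members among the 10 with the largest rises described below, have the ETS letters in capitals. The fourth, of the member with the largest fall, has the E2F letters TTTCCCGC in capitals, and the 4 were chosen after values and matches were seen. Each runs 5′ to 3′ on the gene's strand, at chr16:31873557-31873856 (+), chr6:27473056-27473355 (-), chr9:127424132-127424431 (+) and chr9:96418321-96418620 (-) in the order shown.

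ZNF267: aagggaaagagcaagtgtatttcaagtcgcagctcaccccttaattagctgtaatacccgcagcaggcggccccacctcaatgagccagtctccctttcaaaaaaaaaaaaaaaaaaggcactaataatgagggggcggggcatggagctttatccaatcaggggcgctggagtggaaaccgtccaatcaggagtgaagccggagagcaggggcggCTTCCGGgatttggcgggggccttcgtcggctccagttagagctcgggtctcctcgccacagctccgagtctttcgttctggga

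ZNF184: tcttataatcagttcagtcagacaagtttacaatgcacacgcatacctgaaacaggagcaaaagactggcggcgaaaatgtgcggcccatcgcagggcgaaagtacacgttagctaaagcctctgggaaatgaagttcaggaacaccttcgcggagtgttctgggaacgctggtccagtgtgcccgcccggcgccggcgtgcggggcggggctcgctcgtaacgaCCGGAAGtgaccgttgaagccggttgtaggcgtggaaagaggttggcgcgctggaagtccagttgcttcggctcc

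ZNF79: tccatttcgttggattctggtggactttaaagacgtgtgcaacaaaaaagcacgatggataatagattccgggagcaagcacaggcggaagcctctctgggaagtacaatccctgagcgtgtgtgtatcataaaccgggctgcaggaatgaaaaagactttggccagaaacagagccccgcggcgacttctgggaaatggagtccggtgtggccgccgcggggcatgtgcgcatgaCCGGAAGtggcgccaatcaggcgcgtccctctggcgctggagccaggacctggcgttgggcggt

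ZNF367: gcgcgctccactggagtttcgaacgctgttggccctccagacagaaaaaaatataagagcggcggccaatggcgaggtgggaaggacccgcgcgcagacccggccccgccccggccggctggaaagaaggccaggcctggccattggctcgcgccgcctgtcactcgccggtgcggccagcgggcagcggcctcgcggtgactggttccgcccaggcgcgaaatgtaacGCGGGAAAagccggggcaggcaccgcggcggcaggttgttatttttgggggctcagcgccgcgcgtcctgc

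In ZNF267 and ZNF367 the match was on the opposite strand, so the capitals spell its reverse complement. The ETS match began 34 bases before the start in ZNF267, 25 before in ZNF184 and 14 before in ZNF79, and the E2F match began 21 bases before the start in ZNF367. A match is a description of letters and shows no binding. The E2F letters were in 7 of 202 member promoters (3.47%), in 2.18% of protein-coding promoters and in 1.66% of all promoters. Of the other motifs, CCAAT (NFY) was in 44.6% of member promoters, 36.4% of protein-coding promoters and 35.7% of all promoters. GGGGCGGGG (SP1) was in 21.3% of member promoters, 22.4% of protein-coding promoters and 16.0% of all promoters. The remaining 5 were each in under 5% of member promoters. TGACGTCA (CRE) was in 4.46% of member, 2.59% of protein-coding and 1.98% of all promoters. AAGATGGC (YY1) was in 2.97% of member, 3.91% of protein-coding and 3.03% of all promoters. The longer core of NRF1 was in 2.97% of member, 1.75% of protein-coding and 1.36% of all promoters. That of ZNF143 was in 1.98% of member, 0.37% of protein-coding and 0.26% of all promoters. That of NF-kB was in 0.5% of member, 0.52% of protein-coding and 0.58% of all promoters. No set of letters is contained in another, though their matches may share bases.

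Of 211 tested members, 164 had a positive log2 fold change, so most stood higher in siADAR1. The other 40 of the 251 members had too few counts to be tested, of which 26 had no count in any library and 14 had at most 41 counts over all libraries. By edgeR's quasi-likelihood test, with Benjamini-Hochberg adjustment over 15294 genes, 111 of the 211 tested members were higher in siADAR1 and 17 were lower at an adjusted p below 0.05, and 83 were not called. The 111 higher members are 52.6% of those tested, where the background was 26.0% of all tested genes. The 17 lower members are 8.06%, where the background was 25.0%. Either call was made for 51.0% of all tested genes, so a call alone was common. The median log2 fold change was 0.47 over the tested members, against 0.0047 over all tested genes and -0.017 over protein-coding genes. The libraries of the groups did not overlap in 125 members that were higher and 19 that were lower, with a background of 30.7% of genes higher and 29.7% lower, or 60.3% in either direction. Rises of at least 2-fold were called for 38 members (background 9.85%) and falls of at least 2-fold for 4 (background 4.94%).

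Read as a pool, the members took up more of the siADAR1 libraries. Their summed level was 7360, 6959 and 6946 CPM in siADAR1 libraries 1 to 3, against 5130, 5076 and 5245 CPM in control libraries 1 to 3. All siADAR1 sums lay above all control sums. The number of members with a count was 217 to 221 in siADAR1 libraries and 216 to 220 in control libraries. Scaled by library totals alone, the median of all genes moved to 0.12, with 4892 genes higher and 2887 lower, and 128 members were higher and 11 lower.

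The largest rises covered genes of very different level. ZNF750, a transcription factor of keratinocyte differentiation that is recurrently mutated in squamous carcinomas, had 15.3, 11.5 and 13.2 CPM in siADAR1 and 0.967, 2.62 and 2.04 CPM in control. Its log2 fold change of 2.84 ± 0.28 (adjusted p = 3.97e-06) was the highest of the members. ZNF750 lies within TBCD, a gene on the other strand with 9062 counts to its 746. Overlaps here are of whole gene spans, introns included, and shared exons were not checked. No strand-marking step is named in the library protocol, so reads of any shared exon cannot be told apart by strand. TBCD itself had a log2 fold change of 0.10 and was not called (adjusted p = 0.324).

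ZNF267 on chromosome 16 had 82.2, 71.4 and 80.8 CPM in siADAR1, against 8.70, 15.4 and 19.7 CPM in control, a log2 fold change of 2.42 ± 0.25 (adjusted p = 7.54e-05). ZNF697 on chromosome 1, the most abundant of the 10, had 186, 146 and 145 CPM in siADAR1, against 36.0, 44.0 and 46.1 CPM in control, a log2 fold change of 1.92 ± 0.12. ZNF184 on chromosome 6 had 27.0, 19.2 and 18.2 CPM in siADAR1, against 4.83, 5.45 and 5.45 CPM in control, a log2 fold change of 2.03 ± 0.18. In each of these 3 genes the lowest siADAR1 library lay more than 3-fold above the highest control library. ZNF572, at the low end, had 4.46, 2.36 and 4.58 CPM in siADAR1 and 0.604, 0.942 and 0.460 CPM in control. The other 5 were ZNF467, ZNF34, ZNF79, ZNF641 and ZNF721, with log2 fold changes of 2.01, 1.85, 1.71, 1.70 and 1.47 and no overlap between groups.

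The falls were smaller and fewer. ZNF367, described as an activator of foetal globin genes in erythroid cells, had 8.57, 13.2 and 15.5 CPM in siADAR1, against 26.7, 47.7 and 44.4 CPM in control, a log2 fold change of -1.68 ± 0.26 (adjusted p = 6.86e-04). ZNF395 and ZNF704, relatives in 1 small protein family, both fell. ZNF395 had 22.4, 21.9 and 20.7 CPM in siADAR1, against 46.8, 47.6 and 47.4 CPM in control, a log2 fold change of -1.12 ± 0.10. ZNF704 had 9.14, 12.7 and 13.8 CPM in siADAR1, against 23.4, 28.9 and 31.6 CPM in control, a log2 fold change of -1.24 ± 0.17. ZNF395 had the narrowest spread of these genes, with an SD of 0.915 CPM in siADAR1 and 0.423 CPM in control.

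ZNF519 and ZNF672 fell by 1.00 and 0.88 on the log2 scale. ZNF511 fell by 0.83, but it overlaps TUBGCP2, which had 7482 counts to its 625. ZNF595 fell by 0.78, and ZNF488 by 0.66, whose call was lost without control replicate 3. ZNF385A and ZNF385B, paralogues, fell by 0.74 and 0.79, and the call for ZNF385B was lost in 8 alternatives other than unfiltered FPKM. The remaining called falls, named after their values were seen, were ZNF362, ZNF496, ZNF318, ZNF853, ZNF212, ZNF740 and ZNF74, with log2 fold changes of -0.33 to -0.48. Unfiltered FPKM aside, the call was lost in 7 alternatives for ZNF212 and in 5 for ZNF853. It was lost in 4 for ZNF362, 3 for ZNF74 and 2 for ZNF496.

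**Figure D1:**
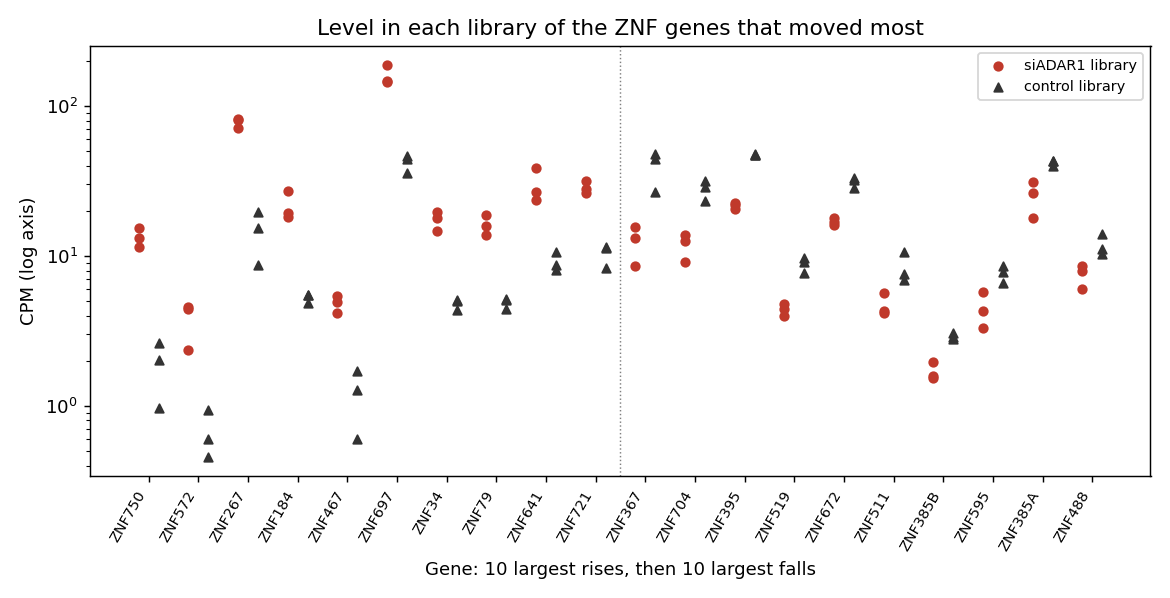
Level of the 10 members with the largest rises (left of the dotted line) and the 10 with the largest falls (right) in each library, in CPM on a log axis, with siADAR1 libraries left of control libraries for each gene. No gene's groups overlap, as the rule for choosing them required, and the rises span ZNF572 at 2.36 to 4.58 CPM to ZNF697 at 145 to 186 CPM in siADAR1.

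Among members that act on RNA and ribosomes, 3 of 8 tested were higher (37.5%) and 1 was lower (12.5%), against 26.0% and 25.0% of all tested genes. ZNF622, the human counterpart of a yeast factor of late large-subunit assembly, had 90.1, 74.9 and 72.9 CPM in siADAR1, against 40.4, 38.1 and 34.1 CPM in control, a log2 fold change of 1.08 ± 0.11 (adjusted p = 6.81e-06). ZNF346, which binds double-stranded RNA, had a log2 fold change of 0.43 (adjusted p = 0.0248), and its call was lost in 4 alternatives other than unfiltered FPKM. ZNF598, the ubiquitin ligase that marks collided ribosomes, had one of 0.30 (adjusted p = 0.0464), with its call lost in 6 of the same alternatives. ZNF385A, an RNA-binding protein that modulates p53, fell, with 18.0, 26.2 and 31.0 CPM in siADAR1 and 39.8, 42.7 and 43.1 CPM in control.

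ZNF638, a partner of the HUSH silencing complex on unintegrated retroviral DNA, was not called in the edgeR fit (log2 fold change 0.45, adjusted p = 0.0606) but passed in 9 alternatives. ZNF326, ZNF207, which stabilises a spindle checkpoint protein, and ZNF106 had log2 fold changes of -0.04, -0.10 and 0.04, with overlapping groups. ZNF593, the counterpart of another yeast ribosome assembly factor, had 0 counts in all libraries.

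Members of chromatin complexes gave 7 rises (63.6%) and no fall among 11 tested, against 26.0% and 25.0% of all tested genes. ZNF217, a partner of the CoREST demethylase complex that is amplified in breast cancer, had 251.8, 224.3 and 221.9 CPM in siADAR1, against 86.8, 105.9 and 107.1 CPM in control, a log2 fold change of 1.22 ± 0.10 (adjusted p = 1.19e-06). ZNF335, which takes part in a histone H3 lysine 4 methyltransferase complex, had 146, 133 and 125 CPM in siADAR1, against 86.1, 60.4 and 69.8 CPM in control, a log2 fold change of 0.90 ± 0.12. Both lie on chromosome 20. Of the 3 paralogues that join ZMYND8 in 1 complex, ZNF592 and ZNF687 were higher and ZNF532 was not called. ZNF592 had 122, 108 and 98.3 CPM in siADAR1, against 62.8, 55.6 and 58.3 CPM in control, a log2 fold change of 0.89 ± 0.10. For ZNF687 the log2 fold change was 0.49, but it overlaps PI4KB, which had 9708 counts to its 6265 and one of 0.58. For ZNF532 it was 0.03, with overlapping groups.

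ZNF827, which brings the NuRD complex to telomeres, had a log2 fold change of 0.65, ZNF512 one of 0.58 and ZNF131, of the BTB class, one of 0.50. Not called were ZNF644, a partner of the histone H3 lysine 9 methyltransferases G9a and GLP (0.35), ZNF451, a SUMO ligase (0.13), and ZNF410, an activator of the NuRD gene CHD4 (-0.71). ZNF410 had 92 counts in all and overlaps FAM161B, with 1051, so its value carries little weight.

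Of 10 tested transcription factors without a KRAB box on the list, 3 were higher (30.0%) and 1 lower (10.0%), and the share higher is near the 26.0% of all tested genes. Beside ZNF750 and ZNF367 these were ZNF281 and ZNF462, with log2 fold changes of 0.50 ± 0.10 and 0.67 ± 0.13. ZNF281 had 43.9, 44.3 and 45.9 CPM in siADAR1, against 30.1, 31.0 and 33.9 CPM in control. Its relative at GC-rich promoters, ZNF148, was not called (0.07), nor were ZNF143, an activator of small nuclear RNA promoters (0.03), ZNF384 (-0.05), ZNF703 (-0.10) and ZNF609 (0.21). ZNF292 had 108, 111 and 114 CPM in siADAR1, against 44.5, 72.8 and 94.1 CPM in control. Those groups did not overlap, but with the wide control spread the adjusted p was 0.0514, and it passed in 11 alternatives. ZNF423 and ZNF521, partners of EBF factors, had too few counts to be tested.

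Among 7 KRAB members with described roles, 4 were higher (57.1%) and none lower, against 26.0% and 25.0% of all tested genes. ZNF10, whose KRAB box is the one most used in synthetic repressors, had 9.93, 10.9 and 11.3 CPM in siADAR1, against 5.56, 6.46 and 4.53 CPM in control, a log2 fold change of 0.96 ± 0.18 (adjusted p = 7.84e-04). ZNF268 beside it on chromosome 12 had one of 0.99, ZNF202, a repressor of lipid genes, one of 0.57 and ZNF263 one of 0.41. ZNF445, which protects imprinted methylation, had a log2 fold change of -0.18, ZNF746, a repressor of PPARGC1A, one of 0.27 and ZNF300 one of -0.15. Those 3 were not called and their groups overlapped.

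On the authors' length-scaled FPKM, the members of highest level over all libraries were ZNF316, ZNF622 and ZNF217. ZNF316 had 44.6 FPKM on average in siADAR1 and 29.6 in control, ZNF622 46.1 in siADAR1 and 21.9 in control, and ZNF217 37.2 in siADAR1 and 16.0 in control. All 3 were called higher. The median over tested members was 3.28 FPKM, so most members stood far below these.

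The rise was not tied to 1 chromosome. Members lie on 19 chromosomes, and 16 of these have at least 5 tested members. On all 16 the share of members called higher was above, and the share called lower below, that of the other protein-coding genes of the same chromosome. The 16 member medians were all positive on the log2 scale, at 0.21 on chromosome 15 to 0.89 on chromosome 20. Medians of the other protein-coding genes were -0.097 to 0.055. Called rises made up 36.4% of members on chromosome 17 and 85.7% on chromosome 20, where the other protein-coding genes of the 16 chromosomes had 23.4% to 30.8%. On 6 of the 16 chromosomes no member was called lower.

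**Figure D2:**
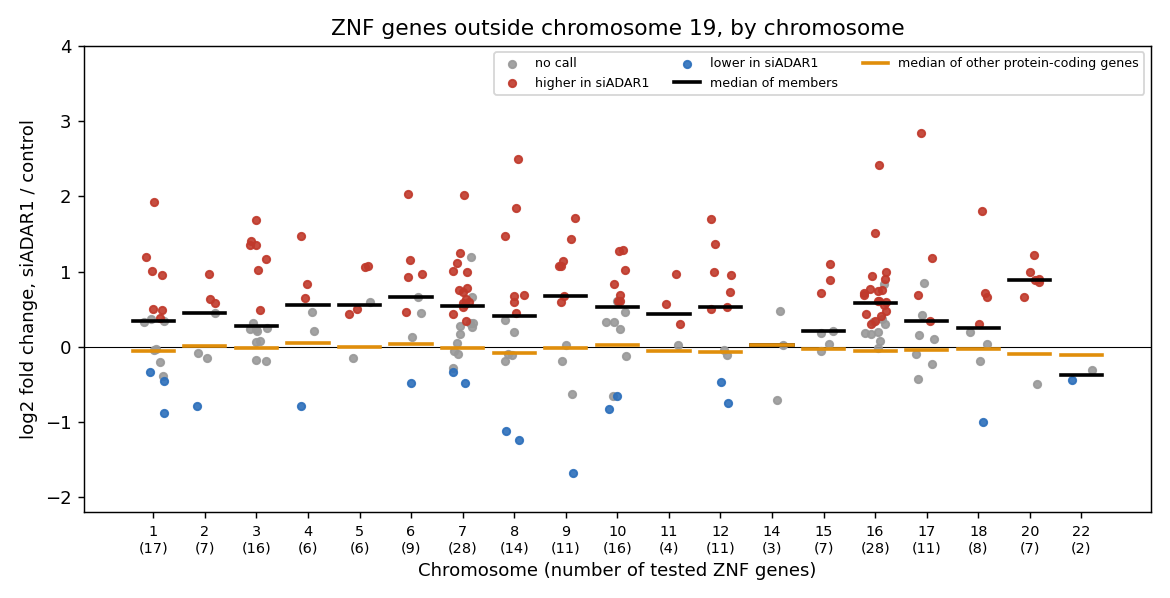
Log2 fold change (siADAR1 over control) of each tested member by chromosome, with the number tested in brackets, red for called higher, blue for called lower and grey for no call. Black bars are member medians and orange bars medians of the other protein-coding genes of that chromosome; black lies above orange on all 16 chromosomes with at least 5 tested members.

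Chromosome 16 held 28 tested members, 19 higher and none lower, with a median log2 fold change of 0.58. Chromosome 7 also held 28, with 15 higher, 2 lower and a median of 0.55. On chromosome 20, 6 of 7 were higher, and ZNF337 at -0.49 was not called. Chromosome 1 had the most falls, 3 of 17 tested, beside 7 rises. The chromosomes with the fewest tested members varied. On chromosome 11, 3 of 4 tested members were higher and none lower, with a median of 0.44. None of 3 members was called on chromosome 14, with a median of 0.02 that was below 0 without siADAR1 replicate 2 or control replicate 3, and of 2 on chromosome 22 ZNF74 was lower.

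On each of the 16 chromosomes, the called member with the smallest p was higher in siADAR1, save ZNF395 on chromosome 8. ZNF398 on chromosome 7 had 69.0, 61.3 and 61.0 CPM in siADAR1, against 27.7, 27.4 and 25.2 CPM in control, a log2 fold change of 1.25 ± 0.10. ZNF140 on chromosome 12 had 29.1, 25.7 and 24.2 CPM in siADAR1, against 10.3, 10.1 and 10.1 CPM in control, a log2 fold change of 1.37 ± 0.13. Control libraries varied little in both. ZNF654 on chromosome 3 had a log2 fold change of 1.35, but it overlaps CGGBP1, with 8056 counts to its 3538. ZNF2, ZNF205, ZNF33B and ZNF516, smallest in p on chromosomes 2, 16, 10 and 18, had log2 fold changes of 0.97, 0.94, 0.83 and 0.71.

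ZNF genes also lie in runs outside chromosome 19. Taking 3 or more ZNF genes whose neighbouring starts are at most 500000 bases apart gave 19 runs with 105 members. In runs, 52 of 92 tested members were higher (56.5%) and 5 lower (5.43%), with a median log2 fold change of 0.57. Outside runs, 59 of 119 were higher (49.6%) and 12 lower (10.1%), with a median of 0.42. Shares over all tested members were 52.6% and 8.06%, and over all tested genes 26.0% and 25.0%. Of 18 runs with at least 3 tested members, 17 had a positive median, 16 had more rises than falls and 13 had no fall. The exception in median was the chromosome 1 run of ZNF695 to ZNF496, at -0.031.

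Neighbours did not move as a block. The longest run, chr16:30378106-31917357, had 13 tested members, of which 7 were higher and none lower, and its log2 fold changes reached from -0.02 for ZNF747 to 2.42 for ZNF267. In chr7:149069643-149867479, 5 of 10 were higher and 1 lower, from -0.34 for ZNF212 to 2.01 for ZNF467. In the chromosome 9 run ZNF367 fell by 1.68, while ZNF510 and ZNF782 had log2 fold changes of 1.07 and 1.08. The range within a run was at least 0.67 and reached 2.75 on the log2 scale. Runs in which most members were called higher include chr12:132918308-133214831 with ZNF140, ZNF10 and ZNF268, where 5 of 6 were higher. In chr16:3112560-3443553, with ZNF205 and ZNF263, 5 of 6 were also higher, within a log2 fold change of 0.18 to 0.94. In chr18:35241030-35377337 all 3 of ZNF397, ZNF24 and ZNF396 were higher, at 0.30 to 1.80.

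**Figure D3:**
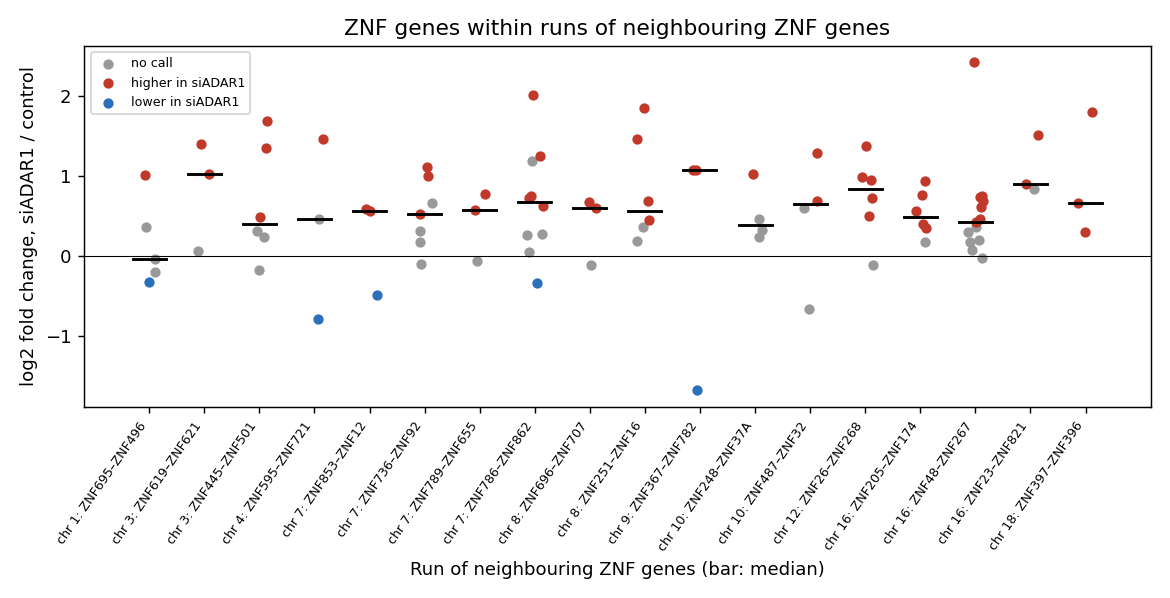
Log2 fold change (siADAR1 over control) of each tested member in the 18 runs with at least 3 tested members, ordered by chromosome, red for called higher, blue for called lower and grey for no call, with a black bar at the run's median. All medians but that of ZNF695 to ZNF496 lie above 0, and members of 1 run lie 0.67 to 2.75 apart.

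Members called higher were found at every level from 1 CPM upwards. In bins of mean CPM, called rises were more frequent and called falls less frequent among members than among all tested genes in every bin from 1 CPM upwards. At 1 to 5 CPM, 35.1% of 37 members were higher and 2.70% lower, against 22.9% and 12.2% of all genes. At 10 to 20 CPM, 64.6% of 48 members were higher and 8.33% lower, against 33.3% and 23.7% of all genes. At 100 CPM and over, 6 of 10 members were higher and none lower, against 21.2% and 44.7% of all genes. Below 1 CPM 3 members were tested and none was called. Across the 211 tested members Spearman's rho between level and log2 fold change was -0.012, as a description.

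**Figure D4:**
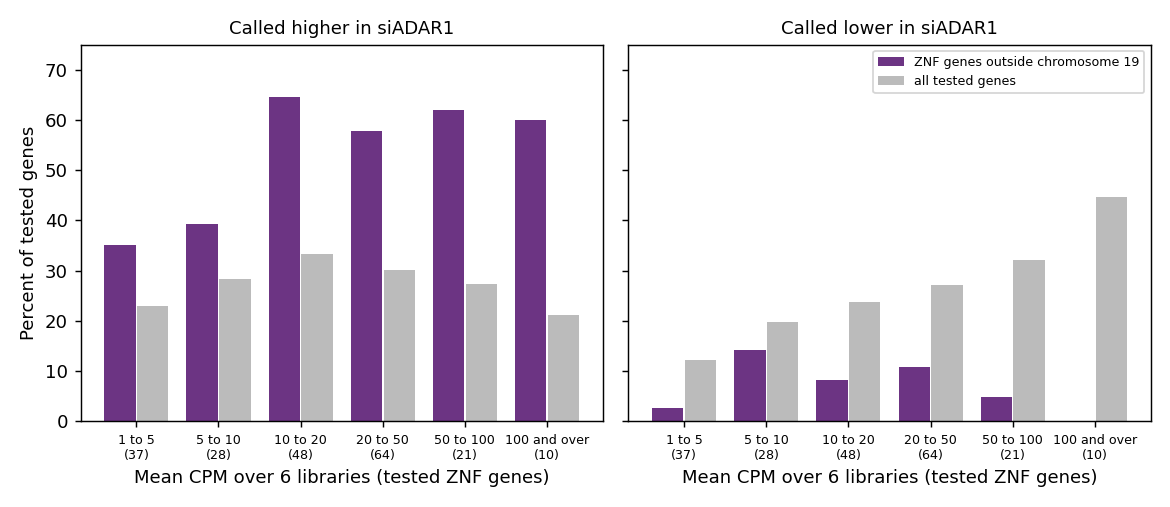
Percent of tested genes called higher (left) and lower (right) in siADAR1, in bins of mean CPM over the 6 libraries, for members and for all tested genes, with the number of members in brackets. Members lie above all genes in every bin of the left panel, with 35.1% to 64.6% called higher, and below in every bin of the right panel.

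Members called higher were found both with and without a KRAB box. A KRAB-like pattern in any translated coding sequence of the gene marked 106 members. Of 90 tested, 46 were higher (51.1%) and 5 lower (5.56%), with a median log2 fold change of 0.55. Without the pattern, 65 of 121 were higher (53.7%) and 12 lower (9.92%), with a median of 0.44. Both classes were near the 52.6% and 8.06% of all tested members, where all tested genes had 26.0% and 25.0%. The pattern misses some known KRAB proteins, ZNF263 among them. With a SCAN pattern, a domain for pairing between zinc finger proteins, 9 of 13 were higher (69.2%) and 1 lower (7.69%), with a median of 0.57. That pattern is 1 strict motif, so members with other forms of the domain are not counted.

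Of 39 tested members with 1 to 4 C2H2 patterns, 14 were higher (35.9%) and 11 lower (28.2%), with a median log2 fold change of 0.18. The share lower is near the 25.0% of all tested genes. Those 11 are most of the 17 falls, and they include ZNF367, ZNF395, ZNF704, ZNF385A and ZNF385B. With 5 to 9 fingers, 48 of 75 were higher (64%) and 3 lower (4%). With 10 to 14 fingers, 29 of 61 were higher (47.5%) and 2 lower (3.28%). With 15 or more, 16 of 27 were higher (59.3%) and 1 lower (3.7%). With 0 patterns found, 4 of 9 were higher (44.4%), ZNF750 among them, and 0 lower, with a median of 0.48. All tested genes had 26.0% higher and 25.0% lower. The medians of the 3 classes with at least 5 fingers were 0.58, 0.46 and 0.73. Spearman's rho between finger count and log2 fold change was 0.22 across the 211 members, which share libraries, and is a description.

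**Figure D5:**
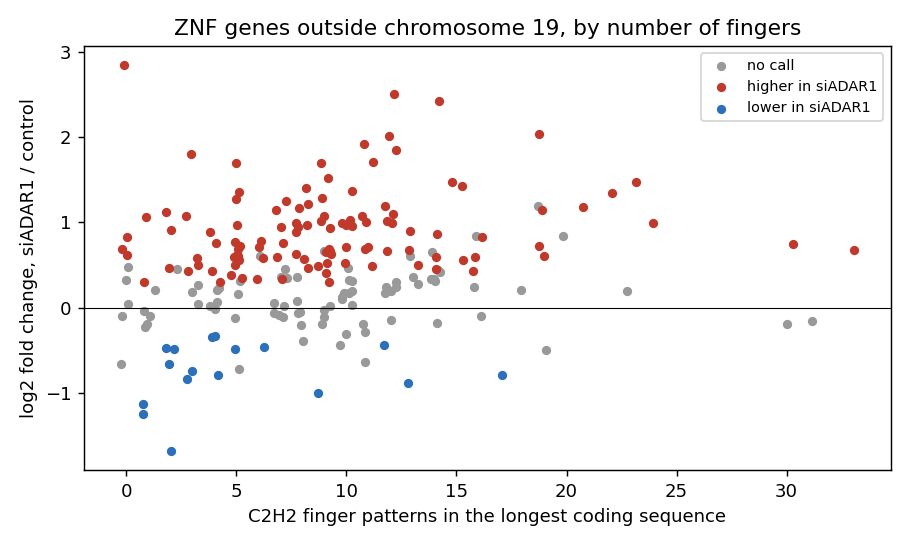
Log2 fold change (siADAR1 over control) of each tested member against the number of C2H2 finger patterns in its longest coding sequence, red for called higher, blue for called lower and grey for no call, with points spread sideways for legibility. Of the 17 blue points, 11 lie at 1 to 4 fingers and 0 at 0 fingers.

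Of 183 tested ZNF genes on chromosome 19, 110 were higher (60.1%) and 2 lower (1.09%), with a median log2 fold change of 0.70. Members had 52.6% higher and 8.06% lower, with a median of 0.47. The difference between these gene sets was not tested. The other protein-coding genes of chromosome 19 had 148 of 696 higher (21.3%) and 208 lower (29.9%), with a median of -0.083. Over all tested genes the shares were 26.0% and 25.0%. On chromosome 19, 138 of 183 tested genes carried the KRAB pattern, against 90 of 211 tested members elsewhere.

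Of 32 tested genes of the TRIM28, HUSH, histone deacetylase and DNA methylation machinery, 18 were lower in siADAR1 (56.2%), 5 higher (15.6%) and 9 not called, with a median log2 fold change of -0.32. Of all tested genes 25.0% were lower, with 32.1% at 50 to 100 CPM and 44.7% at 100 CPM and over. The median level of the 32 genes was 92.9 CPM. Scaled by library totals alone, 15 were lower and 7 higher. TRIM28 had 875, 834 and 802 CPM in siADAR1, against 1448, 1234 and 1154 CPM in control, a log2 fold change of -0.61 ± 0.09 (adjusted p = 1.09e-04). The lowest control library lay above the highest siADAR1 library. UHRF1, which guides maintenance methylation, fell by 1.03, the deacetylase HDAC2 by 0.89 and the methyltransferase DNMT3B by 1.79 on the log2 scale. SETDB1 had 36.4, 39.0 and 35.0 CPM in siADAR1, against 31.8, 29.8 and 28.4 CPM in control, a log2 fold change of 0.29 (adjusted p = 0.0356), and its call was lost in 6 alternatives. KIAA1551, a retroelement silencing factor also called RESF1, the NuRD helicase CHD3 and the methyltransferase DNMT3A had log2 fold changes of 1.17, 0.50 and 0.75. Whether these levels bear on the ZNF genes was not tested.

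By whole gene span, a counted gene overlaps 120 of the 211 tested members, and 22 of them have an overlapping gene with at least as many counts. Of those 22, 9 were higher (40.9%) and 1 lower (4.55%), with a median log2 fold change of 0.24. Without those 22, 102 of 189 tested members were higher (54.0%) and 16 lower (8.47%), with a median log2 fold change of 0.50. Of 91 with no counted overlap, 51 were higher (56.0%) and 8 lower (8.79%), with a median of 0.58. All tested genes had 26.0% higher and 25.0% lower. Promoters with the ETS letters were 40 of 89 among members called higher (44.9%), 5 of 13 among those called lower (38.5%) and 22 of 73 among those not called (30.1%). Among members not tested, 5 of 27 promoters had the letters (18.5%). These shares all exceed the 14.2% of protein-coding promoters, which include those of genes not tested here.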

How the data were processed

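Read counts per gene, whole and not normalized, and FPKM values, which scale fragments by gene length and library size, were deposited by the authors for each library, per the file headers. HISAT2 2.0.5, fastp and CASAVA are named in the submitters' processing notes. For the counting tool and the build, the sources used here give no name. The coordinates of all 58735 genes were identical to those of GENCODE 29 on GRCh38. Groups and replicate numbers came from the sample titles.

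Tests used edgeR 4.0.16 under R 4.3.3. The filter was filterByExpr at a minimum count of 10, libraries were scaled by TMM, and the two-sided quasi-likelihood test with group as the single term was adjusted by the Benjamini-Hochberg method over all 15294 tested genes, and called at 0.05. The common BCV (biological coefficient of variation) was 0.123. A floor of 3 counts is 0.173 to 0.198 CPM per library, and covers counting error only. Alternatives used DESeq2 1.42.0, limma 3.58.1, other scalings and filters, FPKM with pseudocounts of 1 and 0.1, a replicate block, protein-coding genes alone and each library left out.

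KRAB, SCAN and C2H2 patterns were counted in coding sequences translated from GENCODE 29, a step settled with the data at hand. The script was tested on simulated counts. Members and lists were chosen with earlier results of these data known. Named were the 10 largest rises and falls among called members of at least 2 CPM whose groups did not overlap, the called member with the smallest p on each chromosome with at least 5 tested, all members of the role lists, and TRIM28, SETDB1 and 3 co-repressor genes in each direction.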

Additional observations from a re-analysis of the deposited data

How the results depend on the processing

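No member's call turned to the opposite direction in any alternative, and 87 of the 111 higher and 10 of the 17 lower calls held in each of the 17 alternatives other than unfiltered FPKM that tested them. Scaled by library totals alone, 11 members were lower and the median log2 fold change was 0.59, on chromosome 19 the median was 0.82, and that of the co-repressor list -0.21. On log2(FPKM + 1) with a mean of at least 0.5, the member median was 0.35, and chromosome 19 had 1 lower call and a median of 0.50. With a pseudocount of 0.1 it also had 1 lower call. On log2(FPKM + 1) with no filter, limma called 0 higher and 0 lower among members, chromosome 19 ZNF genes and the co-repressor list, with medians of 0.22 for members and 0.21 for chromosome 19. At an unadjusted p below 0.05 it gave 81 higher and 7 lower members, 86 higher and 1 lower on chromosome 19, and 3 higher and 16 lower co-repressor genes. It called 37 higher and 15 lower over all genes, and DESeq2 gave 111 higher and 16 lower members. The cause of these differences was not tested. Without each library in turn, members gave 97 to 112 higher and 13 to 15 lower calls with a median of 0.46 to 0.51. The same omissions gave 102 to 115 higher and 1 to 2 lower calls on chromosome 19 with a median of 0.66 to 0.71, where 1 resulted without control replicate 2 or 3. They gave 4 to 5 higher and 17 to 18 lower co-repressor genes with a median of -0.39 to -0.24, and an ADAR level change of -2.38 to -2.23. Without both libraries numbered 1, chosen after seeing the data, the chromosome 19 median was 0.60, and 119 members were higher and 15 lower. The next counts leave out unfiltered FPKM. Of the members named with their values, ZNF638 and ZNF292 were called higher in 9 and 11 alternatives. ZNF644, ZNF609 and ZNF746 were called in 4 each, and the groups of ZNF644 and ZNF609 did not overlap. The calls for ZNF346, ZNF598, ZNF385B and ZNF488 were lost in 4, 6, 8 and 1. Those for ZNF212, ZNF853, ZNF362, ZNF74 and ZNF496 were lost in 7, 5, 4, 3 and 2.

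Same-numbered libraries had correlations of deviations of 0.301, 0.0963 and 0.177. Each siADAR1 library correlated best with the control of its number, but control 2 correlated better with siADAR1 3 (0.141). Number 1 stood apart in both groups. By chi-square per degree of freedom, siADAR1 1 against 2 and 3 gave 14.8 and 18, and 2 against 3 gave 3.95. For control these values were 14.1, 16.8 and 5.02. The number may pair samples, but this is not shown. With the number as a replicate block, 123 members were higher and 17 lower with a median of 0.49, and all 111 and 17 calls were kept.

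Depth limits members under 1 CPM, of which 3 were tested and none called. The 40 members not tested are not shown to be unchanged.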
